A study of Mus musculus with 9 samples.

Results

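Gene-end regions that were open in bone marrow dendritic cells under all 4 retroviral vectors are described here. Peaks of the 4 deposited lists were merged wherever they overlapped or touched on chromosomes 1 to 19 and X, which gave 194700 merged regions. A region was kept where it overlapped a peak of every list and lay over the 1000 bp on either side of an end of a RefSeq protein-coding gene. This left 15546 regions, 7.98% of all merged regions and 17.0% of the 91644 regions present in all 4 lists. The members were chosen by the presence of peaks in these same lists, so their presence is a description and carries no test.

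The cells were grown from C57Bl/6 bone marrow for 9 days in medium with 20 ng/mL GM-CSF, a cytokine under which bone marrow gives rise to dendritic cells. Retrovirus was added on day 2, and nuclei came from cells sorted for CD11c together with the vector's human CD8 reporter. The mi8 vector was the control for OE, which overexpresses PCGF6, and LMP8 was the control for HP109, which carries a hairpin RNA against Pcgf6. Each vector had 2 libraries and 1 deposited peak list, and 1 input library served all lists. The lists therefore gave no spread between replicates, no test between vectors was possible, and every difference below is a difference between lists. Nothing in the labels says whether the 2 libraries of a vector came from separate cultures or animals.

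ATAC-seq uses a transposase that inserts adaptors into accessible DNA, so a peak marks a stretch of open chromatin in many of the cells. Active promoters are typically depleted of nucleosomes, and many mammalian promoters, above all those of housekeeping genes, lie in CpG islands, which are rich in CG dinucleotides. PCGF6 is a subunit of PRC1.6, a Polycomb complex with MGA, MAX, L3MBTL2 and E2F6 that binds CpG-rich promoters and is known for silencing germline genes. Peaks describe accessibility and not transcription.

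Promoter sequences of 7 members are shown, 3 that were strong in every list and 4 that were low in OE or HP109. They are examples and stand for no share of the members. The 250 bases before a gene's start were taken from RefSeq (GRCm38.p6, the assembly of mm10), where 17274 of 21631 protein-coding genes had an entry. The start in this entry was the outer gene start, at the end of the gene, for 10370 of the 17274 genes (60.03%). For the other genes the bases lay before another start, so their CpG and motif content need not describe the outer start. Ppp2r1a (the scaffold subunit of phosphatase PP2A, chr17:20945204-20945453, plus strand), Snd1 (a Tudor-domain nuclease, chr6:28480098-28480347, plus strand) and Hjurp (the chaperone of the centromeric histone CENP-A, chr1:88277580-88277829, minus strand) lay under 3 of the members that ranked highest in every list. In the sequences, read 5′ to 3′ on the gene's strand, capitals mark matches on either strand to the motifs listed further below, here CCAAT (the CCAAT box), GGGCGG (the GC box) and the ETS motif CCGGAAG.
Ppp2r1a: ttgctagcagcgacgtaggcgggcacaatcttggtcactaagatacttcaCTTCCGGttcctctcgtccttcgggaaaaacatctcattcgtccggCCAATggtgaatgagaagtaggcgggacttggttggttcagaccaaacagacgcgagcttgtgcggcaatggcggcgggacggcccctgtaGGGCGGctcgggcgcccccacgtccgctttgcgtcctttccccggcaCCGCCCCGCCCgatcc
Snd1: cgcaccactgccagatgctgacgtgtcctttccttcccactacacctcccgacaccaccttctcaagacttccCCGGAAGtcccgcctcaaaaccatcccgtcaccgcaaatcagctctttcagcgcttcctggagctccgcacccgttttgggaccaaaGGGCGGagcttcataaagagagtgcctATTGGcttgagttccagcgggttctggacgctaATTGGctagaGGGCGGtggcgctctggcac
Hjurp: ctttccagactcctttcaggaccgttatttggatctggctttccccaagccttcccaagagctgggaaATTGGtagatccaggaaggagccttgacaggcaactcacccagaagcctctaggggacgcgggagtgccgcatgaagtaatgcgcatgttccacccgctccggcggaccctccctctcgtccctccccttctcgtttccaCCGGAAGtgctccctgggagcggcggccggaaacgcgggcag
All 3 held both CCAAT and CCGGAAG, and they had a GC content of 61.6%, 58.4% and 60.8%.

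The next promoters lay under members that were lowest in OE against mi8 or in HP109 against LMP8. They belong to Bpi (an antibacterial protein of granules, chr2:158257991-158258240, plus strand), Slco2b1 (an organic anion transporter, chr7:99711341-99711590, minus strand), Fcrl1 (an Fc receptor-like protein of B cells, chr3:87376137-87376386, plus strand) and Ifi44l (an interferon-induced gene, chr3:151762892-151763141, minus strand). Capitals again mark motif matches, among them CACGTG and GAGGAAG in Bpi, TATAAA and TGANTCA in Fcrl1, and GAAANNGAA in Ifi44l.
Bpi: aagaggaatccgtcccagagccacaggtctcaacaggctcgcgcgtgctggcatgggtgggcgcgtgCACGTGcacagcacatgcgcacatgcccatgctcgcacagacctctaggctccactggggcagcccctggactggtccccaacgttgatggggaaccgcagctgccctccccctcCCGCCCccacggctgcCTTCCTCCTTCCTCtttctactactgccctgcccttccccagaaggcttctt
Slco2b1: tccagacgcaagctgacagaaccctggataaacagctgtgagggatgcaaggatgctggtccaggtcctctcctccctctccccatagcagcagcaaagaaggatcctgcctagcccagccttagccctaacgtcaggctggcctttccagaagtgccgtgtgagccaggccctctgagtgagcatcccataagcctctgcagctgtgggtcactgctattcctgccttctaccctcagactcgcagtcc
Fcrl1: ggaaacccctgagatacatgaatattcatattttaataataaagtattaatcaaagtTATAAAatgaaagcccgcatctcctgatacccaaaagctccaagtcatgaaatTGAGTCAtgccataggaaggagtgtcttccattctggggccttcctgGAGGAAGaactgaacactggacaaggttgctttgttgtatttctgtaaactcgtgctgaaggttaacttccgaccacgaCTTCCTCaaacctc
Ifi44l: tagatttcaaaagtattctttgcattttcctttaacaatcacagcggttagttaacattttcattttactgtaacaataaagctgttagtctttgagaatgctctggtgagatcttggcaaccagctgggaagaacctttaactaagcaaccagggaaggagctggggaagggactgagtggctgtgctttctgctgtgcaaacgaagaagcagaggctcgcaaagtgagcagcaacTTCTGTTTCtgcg
No match to CCGGAAG or CCAAT occurred in these 4 windows, and the ratio of observed to expected CG was 0.52, 0.20, 0.39 and 0.35, against 1.06, 0.73 and 0.70 for Ppp2r1a, Snd1 and Hjurp. GC content in the 4 windows was 64.8%, 58%, 40.8% and 43.2%, so that of Bpi was the highest of all 7. Low CG content was more frequent but not general among such members. Of the members with a promoter sequence that were at least 2-fold lower in OE, 31 had a CpG-rich promoter and 40 had another. These were 0.525% (0.357 to 0.744%) of the CpG-rich class and 1.44% (1.03 to 1.96%) of the other. The share was 1.35% over all members and 3.16% over all regions in 4 lists. Lower members numbered 210 in all, and those with no promoter sequence over them are left out of the 2 classes. The classes also differed in strength, and its part in this difference was not tested. A match is a stretch of letters and does not show that a factor was bound.

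Strength was measured as summit pileup, the whole number of reads stacked at the strongest summit of a region, which was recovered from the authors' fold and −log10 p values in each list. The lists held 111513 peaks (OE), 140750 (LMP8), 170105 (HP109) and 170980 (mi8). The scale that the peak caller applied to the input put the relative depth at 1 for mi8, 0.998 for OE, 0.731 for LMP8 and 0.725 for HP109. Because pileup depends on depth, a difference between 2 lists is given as relative pileup, the log2 ratio of the summit pileups minus its median over all 91644 regions in 4 lists. Intervals given with folds and shares are exact 95% intervals and cover counting error only.

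Gene ends were more often open in every list than the rest of the accessible genome. Of 24454 merged regions at gene ends, 63.6% (62.97 to 64.2%) were in all 4 lists, whereas 44.7% (44.5 to 44.9%) of the 170246 regions away from gene ends were. The members held 20.7% of all base pairs covered by merged regions. A median member was 762 bp wide, and the 5th and 95th percentiles were 235 and 1932 bp. The 76098 regions in 4 lists away from gene ends had a median width of 366 bp.

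Most members lay at the start of a gene. Of the 15546 members, 10857 (69.8%) lay at a gene start, 1718 (11.1%) lay at the far end of a gene only, and 2971 (19.1%) belonged to genes whose strand the gene table did not give. Start members had a median pileup of 63 reads in mi8, 53 in OE, 41 in LMP8 and 58 in HP109. Members at gene stops only had medians of 36, 26, 23 and 33 reads, close to those of regions away from gene ends, which were 38, 27, 24 and 34. They were also narrow, at a median of 377 bp against 851 bp at gene starts. The label of gene-end regions thus covers mainly promoters plus a smaller class at gene stops with the strength of regions away from gene ends.

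**Figure D1:**
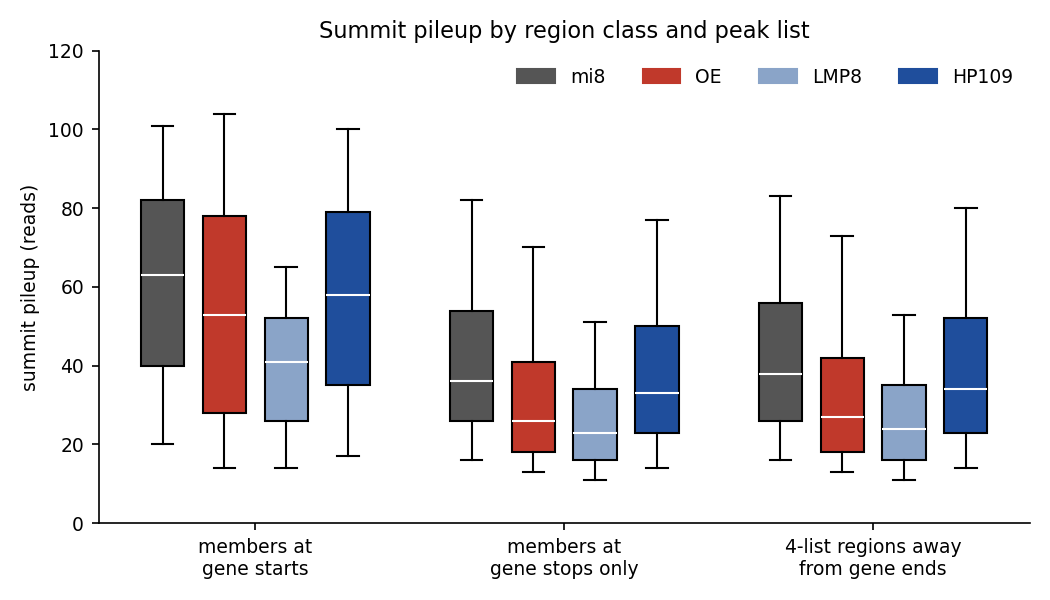
Summit pileup in reads (y axis) for members at gene starts (10857), members at gene stops only (1718) and 4-list regions away from gene ends (76098), in each peak list. Boxes span the quartiles with the median as a white line, and whiskers reach the 5th and 95th percentiles over regions. In every list the gene-start members had the highest median.

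Summits sat on the annotated start. Among the 9633 genes with known strand and a member at the start, the strongest summit lay within 100 bp of the start for 51.4% of genes in mi8, 52.2% in OE, 49.9% in LMP8 and 50.8% in HP109. Within 500 bp the shares were between 81.8 and 82.3%. The median summit was 7 bp upstream in mi8, 8 bp in OE, 3 bp in LMP8 and 8 bp in HP109. Position therefore hardly differed between lists. Within single members, the outermost of the 4 summits lay within 50 bp of each other in 49.8% of members and over 200 bp apart in 11.9%. The same shares were 61.3% and 4.22% in regions away from gene ends, so summits of the wider gene-end regions were less often at 1 place.

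**Figure D2:**
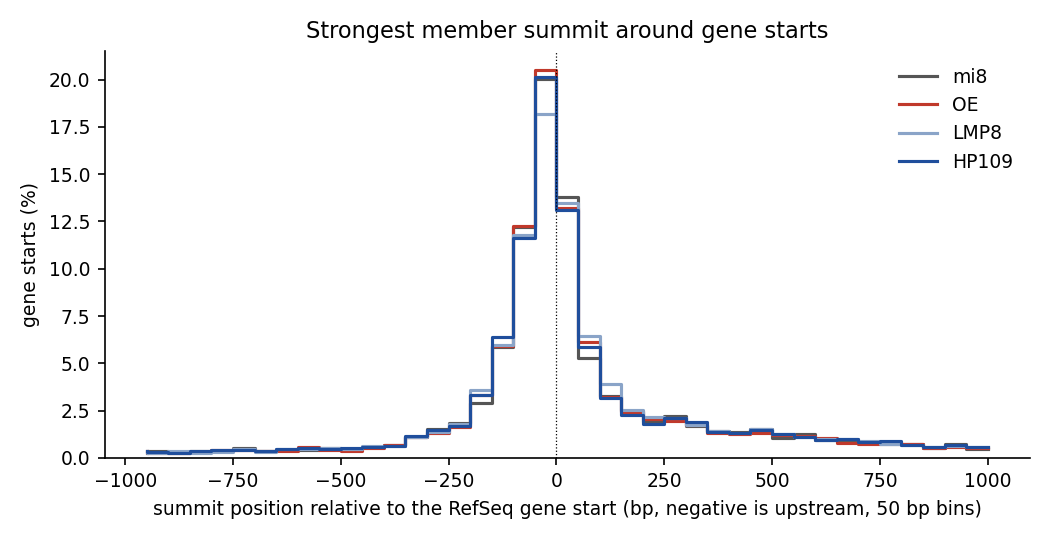
Position of the strongest member summit relative to the RefSeq gene start (x axis, bp, 50 bp bins) as a share of the 9633 gene starts with a member (y axis, %), 1 line per peak list. The 4 lines rise at the start and lie close to one another.

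Some neighbouring genes shared a member. Of the members at gene starts, 694 (6.39%) overlapped the 1000 bp windows around the starts of 2 genes that run away from each other. These head-to-head members were wider, at a median of 1068 bp against 826 bp for single starts. Having to reach 2 windows favours wide regions, and the part of this choice in the differences was not tested. Their median pileup was 74, 71, 48 and 72 reads in mi8, OE, LMP8 and HP109, against 61, 51, 40 and 57 for single starts.

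The promoters under members were rich in CpG. A promoter was called CpG-rich when its 250 bases had at least 50% GC and an observed to expected CG ratio of at least 0.6. Of 8678 promoters over a member, 68.1% (67.1 to 69.1%) were CpG-rich. Of 1522 promoters over a peak that was missing from at least 1 list, 48.9% (46.4 to 51.5%) were CpG-rich, and of 7074 promoters without a peak, 9.26% (8.59 to 9.96%). Members with a CpG-rich promoter had a median width of 1139 bp and median pileups of 75, 70, 49 and 71 reads in mi8, OE, LMP8 and HP109. Members with another promoter had 826 bp and 65, 57, 42 and 61 reads.

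Several motifs were more frequent in member promoters. For this, 14 motifs were searched on both strands of the 250 bases. GGGCGG, the GC box of Sp factors, was in 62.5% of member promoters, 17.1% of promoters without a peak and 43.2% of all promoters. Within CpG-rich promoters alone the gap was small, at 73.3% of member promoters and 68.7% of those without a peak. CCGGAAG, an ETS site, was in 15.4%, 2.18% and 9.26%, and within CpG-rich promoters alone it was in 18.3% of member promoters and 4.58% of those without a peak. CACGTG, the E-box bound by MGA and MAX, was in 8.97%, 3.87% and 6.73%, but within CpG-rich promoters the shares were 10.2% and 10.5%. TTCCCGC, an E2F site, was in 7.67%, 1.65% and 5.04%, and in 9.54% and 8.24% within CpG-rich promoters. The shares for GCATGCGC (NRF1) were 4.92%, 0.83% and 3.00%, for TGACGTCA (CRE) 3.05%, 0.83% and 2.01%, and for AAGATGGC (YY1) 2.10%, 0.92% and 1.51%. Over promoters of any CpG content, these sites, typical of housekeeping promoters, were all more frequent over members than where no peak was called. Within CpG-rich promoters alone this did not hold for CACGTG. There the shares over members and without a peak were 6.11% and 4.43% for NRF1, 3.77% and 2.29% for CRE, and 2.54% and 0.31% for YY1. Only 655 promoters without a peak were CpG-rich.

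The other motifs showed no common direction. CCAAT was in 37.8% of member promoters, 36.5% of those without a peak and 36.8% of all, yet members with it were stronger, with a median of 80 reads in mi8 against 68 without it. TATAAA, the TATA box, was in 6.07% against 21.3% without a peak and 12.5% of all. The AP-1 motif TGANTCA was in 3.96%, 9.17% and 6.23%. GAAANNGAA, an interferon response element, was in 6.38%, 7.80% and 7.0%, and GGANTTTCC, resembling an NF-kB site, was in 1.04%, 1.07% and 1.05%. TTGCNNAA, resembling a C/EBP site, was in 7.29%, 11.9% and 9.24%, and GAGGAAG, resembling the site of PU.1, was in 10.6% (10.01 to 11.3%) of member promoters, 9.03% (8.38 to 9.73%) of those without a peak and 10.1% of all. Outside CpG-rich promoters, member promoters held GAGGAAG in 13.2% against 9.02% without a peak, GAAANNGAA in 10.1% against 8.10% and GGANTTTCC in 1.63% against 1.06%. CCAAT was also more frequent over members there. In the same promoters TGANTCA (7.04% against 9.69%), TTGCNNAA (11.6% against 12.7%) and TATAAA (11.2% against 23.01%) were less frequent over members. Matches to GGGCGG and TTCCCGC can overlap, as can those of other GC-rich motifs.

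Across the genome, 12650 of 21631 protein-coding genes (58.5%) had a member at an end. 8403 genes had 1 member, 3331 had 2, and 4 genes reached 6. These 4 were Bcl2a1b (an anti-apoptotic BCL2 relative of blood cells), Cap1 (an actin regulator), P2ry13 (an ADP receptor) and Hes7 (a clock gene of the embryonic somites). The 6 members at Cap1 ranged from 25 to 102 reads in mi8 and from 20 to 107 in OE, so neighbouring regions of 1 gene differed widely in strength. The share of genes with a member ranged from 37.1% on chromosome X to 67.3% on chromosome 8.

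Housekeeping genes had members almost throughout. Against the 58.5% of all genes, 24 of 25 cytosolic ribosomal protein genes, 24 of 25 proteasome genes, 25 of 25 spliceosome genes and 25 of 25 genes of RNA polymerase II and its general factors had one. The exceptions, Rps2 and Psma6, had no peak near either end in any list. Rpl37, a protein of the large ribosomal subunit, had 115 reads in mi8, 109 in OE, 71 in LMP8 and 111 in HP109. Psma5, a subunit of the proteasome core, had 98, 95, 71 and 96 reads. Taf1, a subunit of TFIID, was among the weakest of these lists, with 18, 17, 19 and 23 reads. For each gene the strongest member is given.

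Genes of dendritic cells and of innate signalling were open as well. All 25 genes of the NF-kB, Toll-like receptor and AP-1 list had a member, with median pileups of 86, 81, 53 and 82 reads, above the medians over all genes with a member of 70, 62, 45 and 66. Tlr4, the receptor for lipopolysaccharide, had 109, 115, 71 and 110 reads in mi8, OE, LMP8 and HP109. Myd88, the adaptor of most Toll-like receptors, had 106, 95, 67 and 102, and Jun, a subunit of AP-1, had 92, 106, 66 and 96 in a region of 4392 bp. The list of dendritic cell identity and antigen presentation had a member at 22 of 25 genes. Itgax, which encodes CD11c, the marker used in the sort, had 83, 73, 53 and 87 reads. Irf4, a transcription factor of dendritic cells, had 92, 94, 53 and 94. Ciita, the transactivator of MHC class II, was missing a peak in OE only. Ccr7, the receptor that guides dendritic cells to lymph nodes, had a peak in mi8 only, and Cd209a had one in HP109 only. Over all 24454 gene-end regions, 10.2% lacked only OE and 15.3% were in 1 list.

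All 25 listed genes of PRC1.6 and other Polycomb complexes had a member. Max had 107, 116, 66 and 110 reads in mi8, OE, LMP8 and HP109, Eed, a subunit of PRC2, had 101, 112, 60 and 99, and Mga had 32, 26, 22 and 30. L3mbtl2 had 59, 53, 45 and 65 reads, and E2f6 had 50, 27, 29 and 37. Of these 5, Max and Eed were the strongest and Mga the weakest in every list.

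Pcgf6, the targeted gene, had 2 members. The region at its start (chr19:47050256-47051034) had 38 reads in mi8, 55 in OE, 16 in LMP8 and 24 in HP109, a relative pileup of 0.90 in OE against mi8 and 0.06 in HP109 against LMP8. The region at its stop (chr19:47033664-47034683) had 10, 34, 16 and 21 reads, 4.37-fold higher in OE against mi8 (interval 2.11 to 9.92) and -0.13 on the log2 scale in HP109 against LMP8. OE was the highest list at both regions. At the stop mi8 was the lowest list, and LMP8 against mi8 was 2.51-fold there. Per the design text OE carries a Pcgf6 cDNA, and reads from the vector's copy and from the gene itself cannot be told apart in peak files. A hairpin acts on RNA, so accessibility at Pcgf6 does not check the HP109 label.

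Lists of germline, developmental, other-tissue and olfactory receptor genes had few members. Of 25 germline genes known as PRC1.6 targets in other cells, 7 had one. Hormad1, a protein of meiotic chromosome axes, had 90, 94, 67 and 103 reads in mi8, OE, LMP8 and HP109, and Tdrkh, a piRNA pathway factor, had 70, 71, 48 and 80. Dazl, a germ cell RNA-binding protein, had 74, 41, 38 and 48 reads, a relative pileup of -0.49 in OE against mi8 and -0.18 in HP109 against LMP8. Zcwpw1, Ggn, Tdrd1 and Brdt were the others, and the members of Tdrd1 and Brdt lay at gene stops only. The class of a region counts every gene with an end there. A gene-start class, as at Hormad1, can therefore come from a neighbouring gene, and whose start it was is not given here. A member at a germline gene thus need not be that gene's promoter. Of the remaining 18 genes, 17 had no peak at an end in any list. Of 25 developmental Polycomb targets 5 had a member, among them Lhx2, Lhx9 and Gata6, as did 4 of 25 genes of liver, muscle, neurons and skin (Apoa1, Ckm, Snap25 and Krt1). The members of Lhx2 and Apoa1 also lay at gene stops only. Olfactory receptor genes had a member in 32 of 1110 cases (2.88%).

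**Figure D3:**
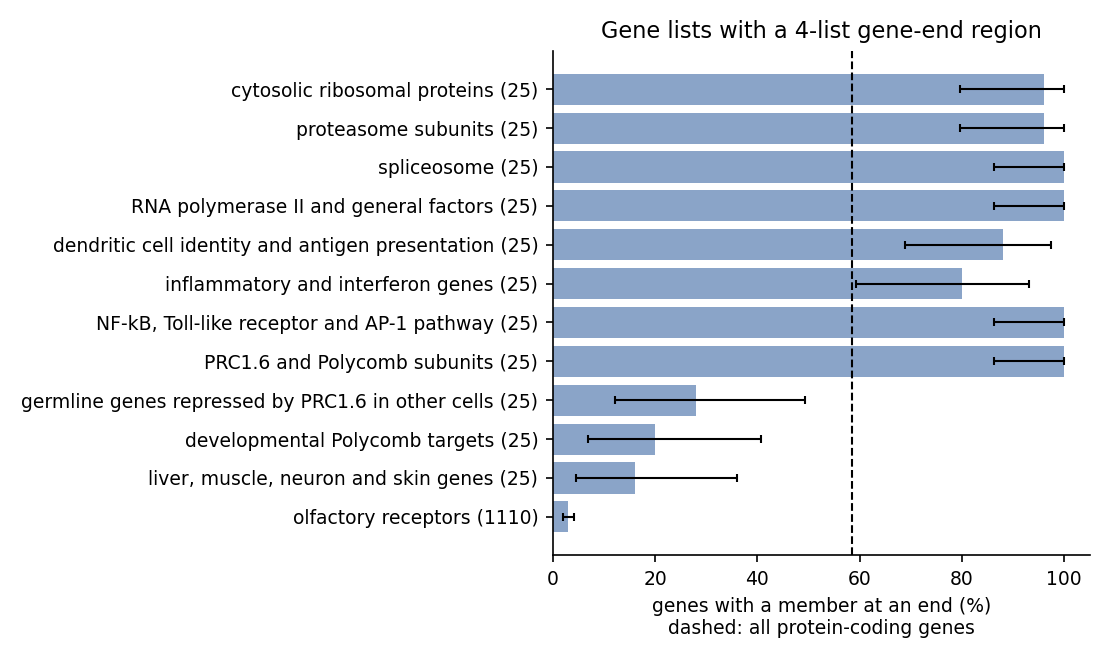
Share of the genes of each list with a member at an end (x axis, %), with the number of genes in parentheses, exact 95% intervals as bars, and the share over all protein-coding genes (58.5%) as a dashed line. The housekeeping, NF-kB and Polycomb lists lie at 96 or 100%, and the germline, developmental, liver to skin and olfactory lists lie at 28% or below.

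Markers of other cell types were checked in the same way. All 8 macrophage markers and 7 of 8 dendritic cell markers had a member. The macrophage markers had median pileups of 70, 59.5, 40.5 and 65 reads in mi8, OE, LMP8 and HP109, and the dendritic cell markers 61, 49, 43 and 61. Members were found at 1 of 8 markers of granulocytes and mast cells (S100a8), 1 of 8 of T, B and NK cells (Cd79a), 3 of 8 of erythroid cells and megakaryocytes (Klf1, Epor and Pf4) and 2 of 8 of stroma (Col1a1 and Pdgfrb). Cd3e, Pax5, Ncr1, Mpo, Gata1 and Pecam1, which define several of these types, had no peak at an end in any list. Cultures with GM-CSF are known to hold macrophages beside dendritic cells. The part of such cells in the values below was not tested, and in bulk nuclei a change in the mix of cells and a change of accessibility per cell cannot be told apart.

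The strongest members stood near the top of every list. By the lowest of a member's 4 within-list ranks, the first was at Ripk2, the kinase downstream of the NOD receptors, with 132 reads in mi8, 140 in OE, 80 in LMP8 and 123 in HP109. Hjurp had 132, 149, 76 and 142 reads, Ppp2r1a had 121, 137, 78 and 118, and Snd1 had 115, 125, 78 and 112. Hjurp stood on a high local background: its fold over background was 9.53, 11.4, 7.01 and 15.3 in the 4 lists, below the medians over members of 15.9, 12.8, 12.9 and 18.8. Glrx5 (a mitochondrial glutaredoxin), Alcam (an adhesion molecule), Gm5165, Hspa13 (an HSP70 relative) and Desi2 (a deSUMOylating peptidase) were also among the first 10. In mi8 and HP109 these 10 members lay at 112 to 132 and 112 to 142 reads, far above the medians of 58 and 53 over all members.

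The widest members spanned several kilobases. Thbs1, which encodes the matrix protein thrombospondin, lay under 2 adjacent members of 11089 and 10533 bp (chr2:118111059-118122147 and chr2:118122221-118132753). Their pileups were unremarkable, at 69, 75, 48 and 81 reads and at 61, 60, 43 and 82 reads. The next were at Fth1 and Best1 (6810 bp, Fth1 being the ferritin heavy chain), Bbc3 (6036 bp, the p53 target PUMA), Rgs1 (5850 bp, a regulator of G protein signalling), and Mdm2 and Cpm (5698 bp, Mdm2 being the ligase that degrades p53). Lilr4b, Ssbp4 and Alyref2, at 4903, 4849 and 4837 bp, were also among the 10 widest. Only 4.28% of members were wider than 2000 bp.

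At the edge of the rule, members passed by their weakest list. The lowest −log10 q of a member was in LMP8 for 66.1% of members and in OE for 30.4%. Tmem215, Pyroxd2, Gfpt2, Tle3 and Tmem235 passed with a −log10 q of 1.39 in OE, and Eif4g1, Fam122a, Krt1, Ctse and Spsb1 with 1.56. Just outside lay 8908 gene-end regions missing from at least 1 list. Of these, 2502 lacked only OE, 348 only LMP8, 83 only HP109 and 69 only mi8. Lmo2, a transcriptional cofactor of blood progenitors, lacked a peak in OE although its −log10 q was 38.6 in mi8, 31.0 in LMP8 and 32.1 in HP109. Rnase6, an antimicrobial ribonuclease, lacked OE with 63.9, 23.2 and 49.5. With a minimum −log10 q of 10 in every list, 77.8% of members would still be members.

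Members varied little between lists once scaled. The highest of the 4 scaled pileups was a median of 1.41 times the lowest, and 1.46 times in regions away from gene ends. It stayed within 1.5-fold in 65.7% of members (64.9 to 66.4%) against 55.1% (54.7 to 55.4%), and it passed 2-fold in 4.23% against 11.0%. The most even member, at Ccdc47 and Ddx42, had 79 reads in mi8, 56 in OE, 48 in LMP8 and 69 in HP109. Polm, a DNA repair polymerase, followed with 69, 49, 42 and 61. Members were also stronger than regions away from gene ends, where counting error is smaller, and the part of strength in this evenness was not tested.

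OE against mi8 was the comparison with the most differences. A relative pileup at least 2-fold higher in OE was found for 64 members (0.412%, 0.317 to 0.525%), where the share over all regions in 4 lists was 1.18%. At least 2-fold lower were 210 members (1.35%, 1.18 to 1.54%), where the share over all regions was 3.16%. Both member shares lay below the background. The depth of these lists was nearly equal, but the median ratio of pileups was 0.778. Scaled by depth in place of this median, 16 members were higher and 879 lower. The balance of higher and lower members thus depends on the scale that is taken as level.

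Within this comparison, relative pileup went with strength from 20 reads upwards. Strength was taken from the lists that do not enter it, as the mean pileup in HP109 and LMP8, in classes chosen after the data were seen. Members with up to 20 reads there had a median relative pileup of -0.03 in OE against mi8, and those with 20 to 30 reads had -0.16. The median was 0.09 at 40 to 50 reads, 0.18 at 50 to 60, 0.32 at 60 to 80 and 0.43 above 80. Regions away from gene ends had 0.04 up to 20 reads, -0.15 at 20 to 30, 0.17 at 60 to 80 and 0.33 above 80. In each class from 30 reads upwards the members lay above the regions away from gene ends, by 0.09 to 0.16 on this scale, judged from medians without a test. In HP109 against LMP8, with strength taken from OE and mi8, the member medians went from -0.23 up to 20 reads to 0.11 above 80. There the members lay below the regions away from gene ends in all 7 classes, by differences of -0.09 to -0.02.

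**Figure D4:**
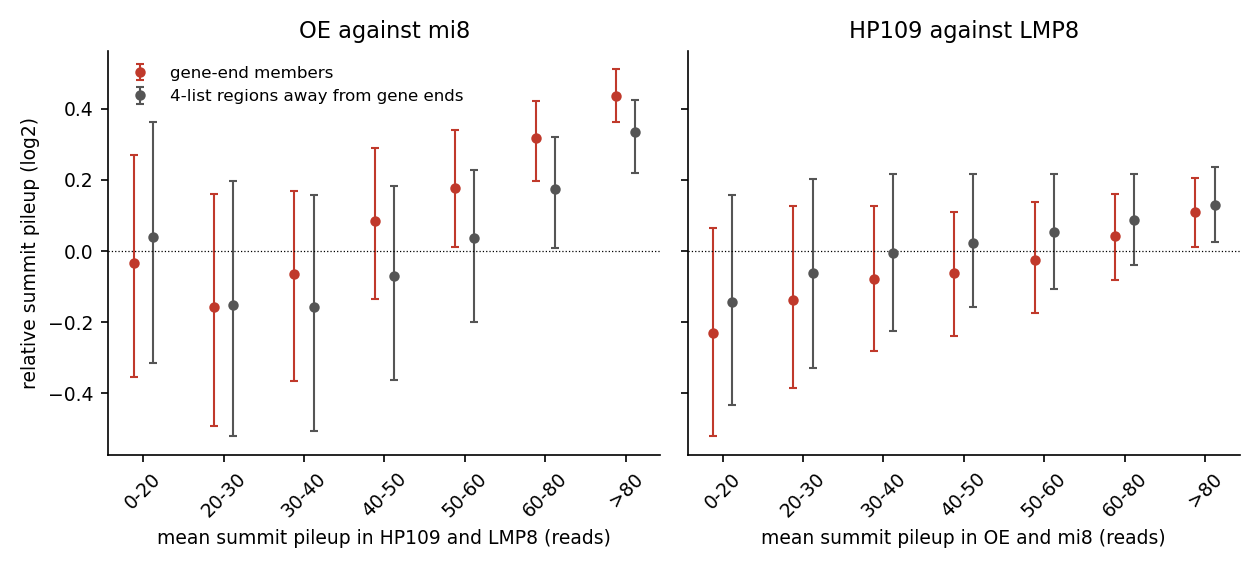
Median relative summit pileup (y axis, log2) of members and of 4-list regions away from gene ends, by mean pileup in the 2 lists outside the comparison (x axis, reads), for OE against mi8 and HP109 against LMP8. Bars span the quartiles over regions. In OE against mi8 the member medians lie at -0.03 up to 20 reads, at -0.16 for 20 to 30 reads and at 0.43 above 80 reads.

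Fabp4, the fatty acid-binding protein of adipocytes and macrophages, headed the members lower in OE. It had 66 reads in mi8, 12 in OE, 37 in LMP8 and 41 in HP109, and was 4.28-fold lower in OE against mi8 (ratio 0.23, interval 0.115 to 0.436). Cxcl2, a chemokine for neutrophils, had 70, 17, 38 and 46 reads at its stop (chr5:90905471-90908439), 3.20-fold lower (ratio interval 0.172 to 0.536). Cxcl2 had 2 more members at its start, with relative pileups of -0.42 and -0.70. At Fabp4 and at the Cxcl2 stop OE was the lowest list, and LMP8 and HP109 lay between it and mi8.

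Cd93, a lectin-like receptor of myeloid and endothelial cells, had 62, 15, 33 and 49 reads. Bpi had 51, 12, 25 and 36, Slco2b1 had 55, 13, 24 and 43, and Fcrl1 had 65, 17, 40 and 52. The first 10 also held Mctp2, Cdh3 (P-cadherin), Ankrd34a and Dpep2 (a dipeptidase), and the 10 ranged from -2.10 to -1.57 on the log2 scale. As they were ranked on this difference, its size is a description. The median of the 210 members lower in OE was 43 reads in mi8, 14.5 in OE, 25 in LMP8 and 31 in HP109. In the other vector pair, their median relative pileup was -0.19 (quartiles -0.46 and 0.04), and 4 of the 210 (1.90%, 0.521 to 4.80%) were also at least 2-fold lower in HP109 against LMP8. That share was 0.852% over all regions in 4 lists and 0.540% over all members.

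Members higher in OE were weak in the other lists. The member at the stops of Dkc1 (dyskerin, a telomerase and rRNA-modifying subunit) and Mpp1 had 9 reads in mi8, 32 in OE, 12 in LMP8 and 15 in HP109, 4.57-fold higher (interval 2.13 to 10.9). It was followed by the Pcgf6 stop given above. Srl, which encodes sarcalumenin of muscle, had 17, 49, 12 and 15 reads, and Nxn, a thioredoxin relative, had 10, 26, 11 and 16. Olfr875, Amelx (an enamel protein), H4c3 (a histone H4 gene), Zfp760, Gzf1 and Prpf18 (a splicing factor) completed the first 10. OE was the highest list in each of them. The mi8 list was also low there beside the other control. LMP8 against mi8 was 2.10-fold at Dkc1 and Mpp1, 2.51-fold at the Pcgf6 stop, 2.36-fold at Olfr875 and 2.06-fold at Prpf18. The rest lay between 1.11-fold at Srl and 1.80-fold at H4c3. Over all members, 0.148% were at least 2-fold higher in LMP8 against mi8. The part of a low mi8 value in these folds was not tested.

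**Figure D5:**
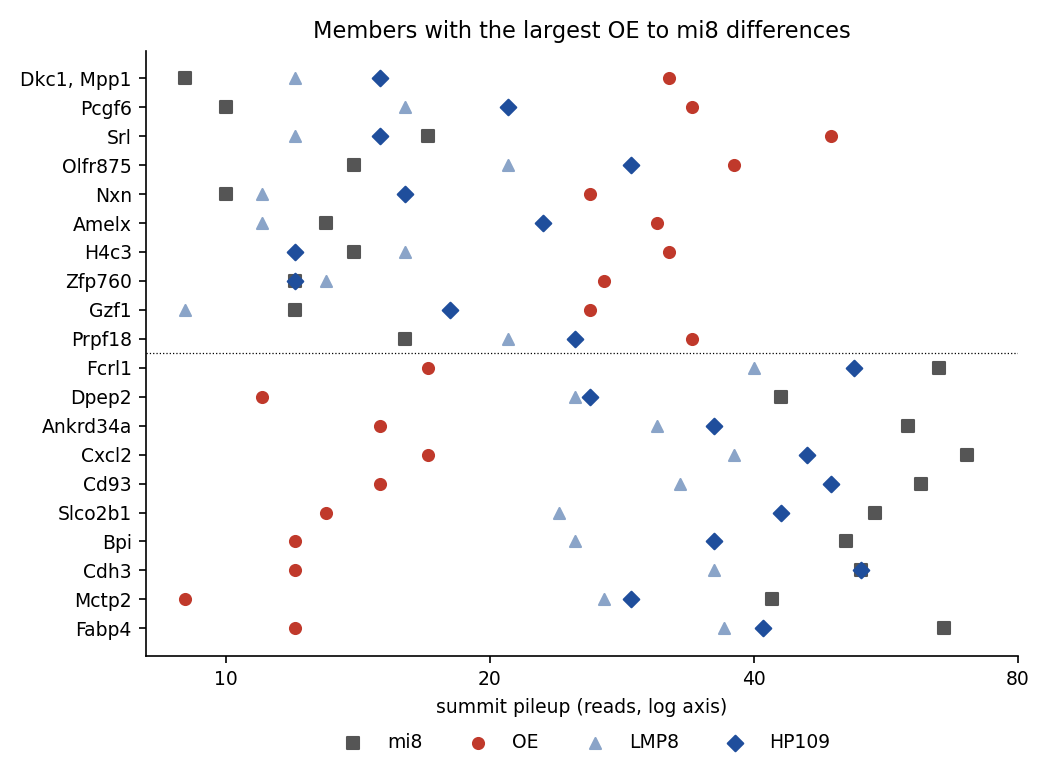
Summit pileup in reads (x axis, log scale) in the 4 peak lists for the 10 members highest (above the dotted line) and the 10 lowest in OE against mi8. OE is the highest list in the upper 10 and the lowest in the lower 10.

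Gene lists differed in the same comparison. The median relative pileup over all genes with a member was 0.22 in OE against mi8. It was 0.37 for proteasome genes (22 above 0 and 2 below), 0.32 for the spliceosome, 0.31 for RNA polymerase II, 0.28 for ribosomal proteins and 0.26 for the NF-kB, Toll-like receptor and AP-1 list. Inflammatory and interferon genes had a median of -0.18, with 6 genes above 0 and 14 below, and median pileups of 62.5, 42.5, 36.5 and 48 reads. Relative pileup went with strength, and members of 40 to 50 reads in LMP8 and HP109 had a median of 0.09. The list spans several such classes, with 15 and 11 reads in LMP8 and HP109 at Il1b and 58 and 95 at Stat2. No single class stands for it, and the part of strength in its median was not tested. Scaled by depth, each of the medians of relative pileup given here is lower by 0.36.

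Among the inflammatory genes, Rsad2, which encodes the antiviral protein viperin, had 67 reads in mi8, 26 in OE, 31 in LMP8 and 32 in HP109, a ratio of 0.499 in OE against mi8 after scaling. Ptgs2, the inducible cyclooxygenase, had 61, 30, 30 and 33 (-0.66), and Irf7, a master regulator of interferon genes, had 64, 34, 46 and 49 (-0.55). Ccl22, a chemokine of mature dendritic cells, had 41, 22, 23 and 42 (-0.54). Cxcl10, a chemokine induced by interferon, had 61, 61, 36 and 48 (0.36). The list thus held genes in both directions. Il12a, Il27, Cxcl9 and Ifnb1 were no members because they lacked a peak in OE alone, and Ccl5 had a peak in mi8 only. Over all 24454 gene-end regions, 10.2% lacked only OE, 0.282% lacked only mi8 and 15.3% were in 1 list. OE also held the fewest peaks, so such losses are not particular to these genes. Outside the lists, 2 genes were chosen after their values were seen. Ccl2, a chemokine for monocytes, had a stronger member at -0.27 (90, 58, 68 and 81 reads) and a weaker one at -1.54 (45, 12, 28 and 30). Oasl2, an interferon-induced antiviral gene, had a member at -1.42.

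Among the markers, C1qb alone passed 2-fold in OE against mi8. C1qb, a subunit of complement C1q, had 71 reads in mi8, 22 in OE, 42 in LMP8 and 70 in HP109 (-1.33) and C1qa had 46, 23, 33 and 42 (-0.64). Adgre1 (F4/80) had 59, 59, 41 and 63 (0.36), and Csf1r had 71, 69, 38 and 57 (0.32). Of the 8 macrophage markers 4 lay above 0 and 4 below, with a median of 0.06. Of the dendritic cell markers Flt3, a receptor of their precursors, had 38, 16, 27 and 22 reads (-0.89), Zbtb46 had 32, 18, 24 and 30 (-0.47) and Irf4 had a relative pileup of 0.39. Their median was 0.16, with 4 above 0 and 3 below. Among markers of other cells, Epor was at -0.40, Pf4 at -0.50, Klf1 at 0.10, Cd79a at -0.47 and S100a8 at -0.02. 

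HP109 against LMP8 showed fewer differences. At least 2-fold higher in HP109 were 10 members (0.0643%, 0.0309 to 0.118%), where the share over all regions was 0.302%. At least 2-fold lower were 84 members (0.540%, 0.431 to 0.669%), where the share over all regions was 0.852%. Here too the depth was nearly equal, and the median ratio of pileups was 1.43. Scaled by depth, 456 members were higher and 2 lower, the opposite balance. The members lower in HP109 were weak, with medians of 23, 15, 18.5 and 12 reads in mi8, OE, LMP8 and HP109.

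Of the 10 members higher in HP109, 9 lay at gene stops only. These were 0.524% (0.240 to 0.992%) of the 1718 members at gene stops only. The share was 0.351% in regions away from gene ends and 0.302% over all regions in 4 lists. Dusp16, a phosphatase of MAP kinases, had 31 reads in mi8, 29 in OE, 13 in LMP8 and 48 in HP109, 2.57-fold higher (interval 1.37 to 5.18). Tmem263 had 36, 49, 22 and 68, Sem1, a small proteasome subunit, had 53, 53, 20 and 60, and Olr1, the receptor of oxidised LDL, had 12, 20, 8 and 27. Ascl3, Ccdc122, Zfp9, Patl1, Retreg1 and Gm10334 were the others. LMP8, the list with the lowest median, was the lowest list in all 10.

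The lowest members in HP109 against LMP8 were Shroom3 (an actin-binding protein), with 32 reads in mi8, 18 in OE, 23 in LMP8 and 11 in HP109 (-1.58), and Sstr4, a somatostatin receptor, with 46, 25, 31 and 16 (-1.48). Sin3a, a corepressor scaffold, had 26, 14, 26 and 14 reads (-1.41) in a region of 310 bp. Ifi44l had 39, 14, 22 and 13, lower in both pairs at -1.12 in OE against mi8 and -1.28 in HP109 against LMP8. Trp53i11 had 46, 18, 32 and 19, likewise low in both at -0.99 and -1.27. LOC115489044, Mmaa, Zhx1, Abr and the region shared by Apoe and Tomm40 made up the 10.

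In the lists of genes, the inflammatory and interferon genes had a median of -0.11 in HP109 against LMP8, with 8 above 0 and 12 below, where all genes with a member had 0.03. Il1b, the gene of interleukin 1 beta, had 19, 14, 15 and 11 reads (-0.97), and Isg15, an interferon-induced modifier, had 66, 45, 45 and 38 (-0.76). Flt3 was at -0.82. None of the 20 with a member passed 2-fold in either direction, and the median of the dendritic cell list was 0.09.

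The 2 control vectors set a background for these differences. LMP8 against mi8 gave 23 members at least 2-fold higher (0.148%) and 11 lower (0.0708%), where the shares over all regions were 0.27% and 0.236%. The SD of the relative pileup over members was 0.26 in this comparison, 0.30 in HP109 against LMP8 and 0.40 in OE against mi8. Scaled by depth, 5 were higher and 50 lower. The spread between control vectors was thus the smallest of the 3 and OE against mi8 the largest, although only 1 pair of lists stands behind each. All 4 lists share 1 input, and LMP8 and mi8 also enter the other comparisons.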

How the data were processed

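ATAC-seq was measured in 9 libraries, 2 for each of 4 vectors and 1 input. Reads were handled with BWA, Picard and MACS2 on mm10, per the submitters' processing notes. Versions, thresholds, read shifting and the pooling of the 2 libraries of a vector were each not given in the sources used here. Here there was 1 peak list per vector, and the list names say that reads were downsampled. In the deposited lists, the score is 10 times the −log10 q as a whole number. The fold is the summit pileup plus 1 over the local background plus 1, and −log10 p and −log10 q were set by the authors' peak caller. Fold and q are the authors' values and served to describe, rank or filter within a list.

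Peaks were merged on chromosomes 1 to 19 and X by at least 1 bp of overlap or by touching. Gene ends came from RefSeq (GRCm38.p6, 21631 protein-coding genes, strand given for 17274). Summit pileup was recovered from the fold and the Poisson −log10 p, within 0.001 of the deposited −log10 p for 100% of peaks, and the recovery was tested on simulated data. Relative pileup is log2-scaled to the median over all regions in 4 lists, and a region was called from 2-fold. Shares have exact Clopper-Pearson intervals. With 1 list per vector no test was run and no error between replicates could be given.

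The members and gene lists were chosen with earlier results of these data known. Genes were named by rank: the 10 members with the highest lowest rank, the 10 widest, the 10 with the lowest −log10 q, the 10 with the largest relative pileup in each direction among those with at least 20 reads in 1 of the 2 lists, the 5 genes with most members, and genes of the lists and markers. A few genes that these rules name are not reported here. Alternatives were other windows, q minimums, merging distances, equal list lengths, folds and scalings. No column of per-sample values was left unmapped. Python 3.11.15, numpy 2.4.6, pandas 2.3.3, scipy 1.17.1 and matplotlib 3.10.9 were used.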

Additional observations from a re-analysis of the deposited data

Results flagged for a closer look

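Peaks were also present on chromosomes that the choice of members leaves out. On chromosome Y the lists held 30 peaks in mi8, 22 in OE, 19 in LMP8 and 26 in HP109. On the mitochondrial chromosome mi8 held 4 peaks, OE 3, LMP8 15 and HP109 2. They stand here because they are signal outside the regions described above; without lists for the input there was no control level to set beside them.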

How the results depend on the processing

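No paired analysis was possible because each vector had 1 peak list for its 2 libraries, and for the same reason no replicate could be left out. The number of members and of genes with a member stayed within 1.5 times the values given in 8 other choices of window, q minimum, list length, overlap and merging, and in 4 added after the data were seen that dropped the demand for a peak in 1 list. Members ranged from 10857 (gene starts only) to 22527 (gene ends within 2500 bp).

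Counts of members past the fold limit moved more. From 1.5-fold, 1900 members were called in OE against mi8, 1000 in HP109 against LMP8 and 583 in LMP8 against mi8, and from 3-fold 15, 2 and 0. Scaled by depth the counts were 895 (16 higher and 879 lower), 458 (456 and 2) and 55 (5 and 50), and scaled by the members' own median ratio 441 in OE against mi8 (34 and 407). For HP109 against LMP8 and LMP8 against mi8 that scaling gave 95 and 35, with 19 higher and 16 lower in the latter. With the authors' fold in place of the pileup the counts were 456 (209 higher and 247 lower), 204 (69 and 135) and 136 (92 and 44). Among members with at least 20 reads in 1 of the 2 lists they were 270, 47 (10 and 37) and 20 (9 and 11). With gene ends within 500 bp they were 176, 51 and 17, and within 2500 bp 543, 165 and 69. The windows change how many regions are members; for the other settings the cause was not tested.

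Depth limits single members: among the 10 members highest in HP109 against LMP8, the counting interval of Gm10334 reached below 1 (0.957 to 4.65).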
